A study of Mus musculus with 8 samples.

Results

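Of the 37315 genes counted in the CA1 region of the mouse hippocampus, 36 are described here: 18 genes that define the astrocyte at rest and 18 that astrocytes raise when they become reactive. The members were listed by symbol and matched to the Ensembl identifiers of the deposited count files, and each symbol matched 1 identifier. The identity genes are Aqp4, Aldh1l1, Slc1a2, Slc1a3, Gja1, Gjb6, S100b, Aldoc, Glul, Fgfr3, Sox9, Ntsr2, Gpc5, Atp1b2, Kcnj10, Mlc1, Slc4a4 and Acsl3. The reactive genes are Gfap, Vim, Serpina3n, Lcn2, Osmr, Cd44, Timp1, S1pr3, Steap4 and Cp of the panel raised by most injuries, Ggta1, Srgn and Fkbp5 of the panel named for neuroinflammation (A1), and Emp1, Tm4sf1, Cd109, Ptx3 and S100a10 of the panel named for ischaemia (A2).

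All 8 mice carried Cas9 and received an adeno-associated virus (AAV) into the brain by stereotaxic injection. In 4 mice the virus carried a guide RNA against SIK3, a salt-inducible kinase, and these mice are called KO. In the other 4 it carried a control guide, and these are called Control. Each group held 2 males and 2 females: Control 1, Control 3, KO 1 and KO 2 were male and Control 2, Control 4, KO 3 and KO 4 were female. Each mouse gave 1 library, and the numbers follow the listing order and pair no animals. Age, strain, the promoter or cell type that drives Cas9, the cells reached by the virus and the time after injection were not stated in the sources used here. Both groups were injected, and no uninjected mouse is part of the comparison, so every level below is a level after an injection.

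Astrocytes are the glial cells that clear glutamate and potassium from around synapses, pass metabolites through gap junctions and line blood vessels with water channel-bearing endfeet. After injury, infection or inflammation they become reactive: intermediate filament genes such as Gfap and Vim rise, together with acute-phase and cytokine-response genes, in part through STAT3 and NF-kB signalling. In CA1 they contact many excitatory synapses, and their glutamate transporters and potassium channels shape how long a synaptic signal lasts. Salt-inducible kinases are known to restrain CREB coactivators and class IIa histone deacetylases.

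Total counts per library ran from 13561662 to 18619928, with 13561662 to 15165413 in the males and 16743701 to 18619928 in the females, so depth and sex went together while both guides had both sexes. Sik3 was at 147 ± 12.8 CPM (library-scaled counts; SD, n = 4) in Control and 86.2 ± 9.73 CPM (SD, n = 4) in KO, and it fell by 0.77 on the log2 scale with the SIK3 guide (edgeR quasi-likelihood test, adjusted p = 0.0202). That call was lost without Control 2 (edgeR adjusted p = 0.108), Control 3 (0.0866), KO 2 (0.0865) or KO 3 (0.242). Wfs1, a marker of CA1 pyramidal neurons, was at 86.0 to 150 CPM over the 8 libraries. Prox1, a marker of dentate granule neurons and of some interneurons, was at 231 to 307 CPM in all 8 libraries. In bulk RNA, fewer cells of a type and less RNA per cell cannot be told apart.

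None of the 33 members that passed the count filter passed the test between the guides, beside 0.0135% of all tested genes (2 of 14788). The identity genes held nearly the same summed level in all 8 mice, 9361 to 10091 CPM in Control and 9381 to 10009 CPM in KO. Slc1a2 made up 56.0% of that sum in Control, and single genes such as Gjb6 (35.0 to 56.1 CPM) varied more. Of the identity genes, 15 had a 95% interval for the KO to Control ratio that lay inside 0.8 to 1.25. The reactive genes were expressed far lower and varied more. Of the 15 that passed the count filter, 12 had a positive log2 fold change with the SIK3 guide, among them Gfap, Vim, Ggta1 and Ptx3, and 3 had a negative one, Serpina3n, Fkbp5 and Cd109. The median log2 fold change was 0.12 for the reactive genes, 0.01 for the identity genes and 0.00 over all tested genes, and without KO 4 the reactive median was 0.06.

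The levels of the members were first ordered per length, as FPKM (CPM per kilobase of merged exons). Merged exons join the exons of all annotated transcripts of a gene, so a ratio between genes depends on that length. Slc1a2, which encodes the main glutamate transporter GLT-1, stood highest at 413 ± 28.6 FPKM in Control (SD, n = 4), followed by Glul, which encodes glutamine synthetase, at 322 ± 25.2 FPKM (SD, n = 4). Slc1a2 was 4.51 times as high as Slc1a3 on this scale. The median was 31.7 FPKM for the identity genes and 1.12 FPKM for the reactive genes. Of the 18 identity genes 17 had at least 5 FPKM, the exception being the transcription factor gene Sox9 at 3.34 FPKM. Only Gfap at 54.9 FPKM, Serpina3n at 26.1 FPKM and Fkbp5 at 8.25 FPKM reached that level among the 18 reactive genes, and 9 were under 1 FPKM. Gfap was 13.0 times as high as Vim, and the connexin genes Gja1 and Gjb6 stood 1.15 to 1. In summed CPM, Slc1a2 made up 56.0% of the identity genes and Gfap 50.2% of the reactive genes in Control. Together the members held 0.991% to 1.04% of all counts in a library.

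**Figure D1:**
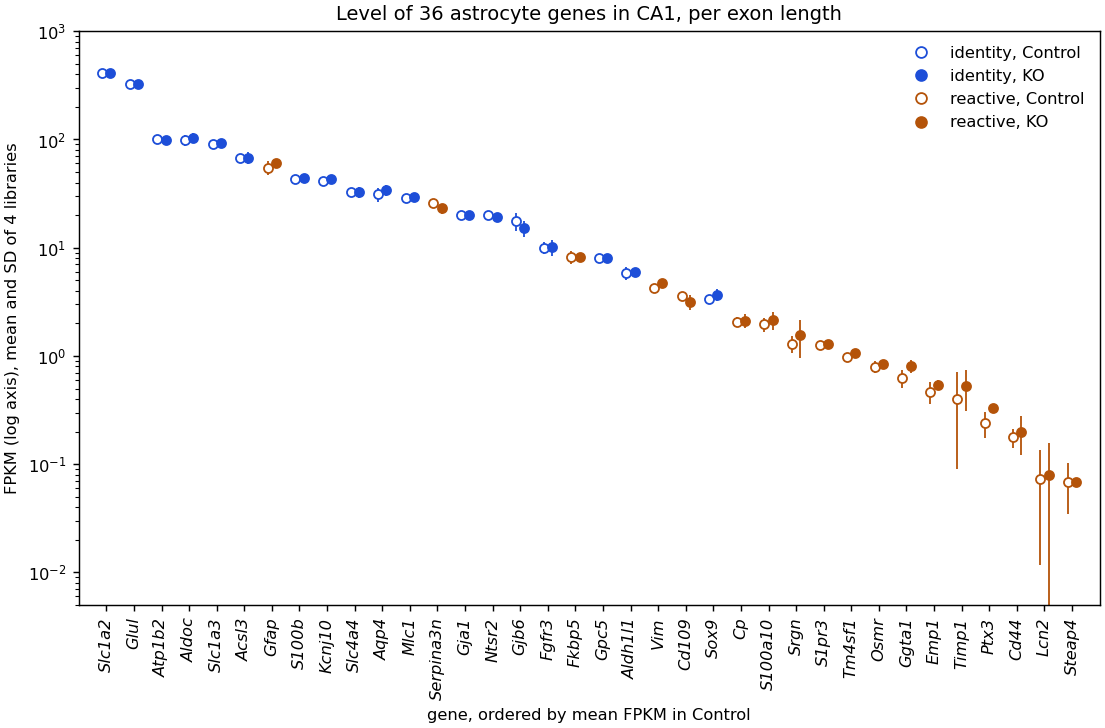
Mean level of each of the 36 members in Control and KO, in FPKM on a log axis, with bars for the SD over 4 mice (bars that reach 0 are cut at the axis). The identity genes lie mostly above 5 FPKM and the reactive genes mostly below, and the Control and KO points of a gene lie close together.

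The bases before the start sites of Vim and Serpina3n are shown here for the motifs they hold. Vim was the member with non-overlapping groups and Serpina3n the member with an unadjusted p under 0.05 in the comparison of guides below, each 1 of 33, counts near the share over all tested genes, and neither passed the test. Windows of 300 bases, 250 before and 50 after a RefSeq start, were present for 31 of the 36 members (37 windows, build GRCm38.p6), and they were searched on both strands. The 250 bases before the start are printed 5′ to 3′, with the matched letters in capitals. In Vim (chr2:13574061-13574310, plus strand) the capitals mark an NF-kB-type motif 223 bases before the start, a match on the minus strand, and the TATA letters TATAAA 32 bases before it. In Serpina3n (chr12:104406458-104406707, plus strand) they mark an NF-kB-type motif 171 bases before the start and letters of the glucocorticoid response element 78 bases before it.
Vim: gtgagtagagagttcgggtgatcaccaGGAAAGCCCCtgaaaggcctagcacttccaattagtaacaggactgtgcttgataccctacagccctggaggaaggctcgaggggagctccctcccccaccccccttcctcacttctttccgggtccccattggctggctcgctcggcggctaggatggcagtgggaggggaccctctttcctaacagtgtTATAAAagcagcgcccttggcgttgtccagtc
Serpina3n: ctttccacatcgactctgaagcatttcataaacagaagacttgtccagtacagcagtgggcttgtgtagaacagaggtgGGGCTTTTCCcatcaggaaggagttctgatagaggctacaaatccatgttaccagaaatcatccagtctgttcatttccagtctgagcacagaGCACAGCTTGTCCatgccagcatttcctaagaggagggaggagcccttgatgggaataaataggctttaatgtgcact

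The NF-kB letters GGGNNTTTCC were in the windows of 3 members, Vim, Serpina3n and Steap4, and in 1.63% of all 32851 windows. The glucocorticoid response element letters GNACANNNTGTNC were in 1 member window, that of Serpina3n, and in 0.475% of all windows. The STAT letters TTCNNNGAA were in the windows of Slc1a3, Aldoc, Ntsr2, Gfap, Steap4 and Emp1 and in 8.3% of all windows. The AP-1 letters TGANTCA were in those of Gja1, Osmr, Cp and Emp1 and in 7.81% of all windows. TATAAA was in 7 member windows and in 13.6% of all windows, and the E-box CACGTG in those of Ntsr2 and Fkbp5 and in 7.15% of all windows. The SOX letters ACAATGG were in 0 member windows and in 3.66% of all. Of these motifs none overlapped in the 2 sequences printed. A match is a run of letters and not a site of binding, and these counts were not tested.

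The identity genes were compared by role, beginning with glutamate uptake and recycling. Slc1a2 was at 4970, 5649, 5284 and 5806 CPM in Control 1 to 4 and at 5591, 5129, 5551 and 5384 CPM in KO 1 to 4. Slc1a3, which encodes the second astrocyte glutamate transporter, GLAST, was at 751, 786, 793 and 800 CPM in Control and 805, 791, 776 and 825 CPM in KO. Glul was at 1173, 974, 1045 and 1094 CPM in Control and 1025, 1098, 1030 and 1147 CPM in KO. The groups overlapped for each of the 3 genes. The 95% interval for the KO to Control ratio was 0.919 to 1.09 for Slc1a2, 0.949 to 1.10 for Slc1a3 and 0.909 to 1.11 for Glul. Slc1a3 was the steadiest member, with a within-group SD of 0.04 on the log2 CPM scale, and only 0.899% of all tested genes had a smaller one.

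The gap junction genes differed in how steady they were. Gja1, which encodes connexin 43, was at 217, 204, 215 and 195 CPM in Control 1 to 4 and 230, 195, 195 and 211 CPM in KO 1 to 4. Gjb6, which encodes connexin 30, was at 50.4, 36.3, 44.9 and 56.1 CPM in Control and 50.7, 37.6, 35.0 and 37.9 CPM in KO. The KO libraries 2 to 4 had low Gjb6, but Control 2 was as low and KO 1 was as high as most Control libraries. Gjb6 had the most negative log2 fold change among the identity genes, -0.23 ± 0.13 (SE; 95% interval -0.51 to 0.06), and did not pass (edgeR quasi-likelihood test, adjusted p = 0.9999). Its within-group SD of 0.25 was the largest of the 18.

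Among the genes for water, ions and pH, Aqp4, the endfoot water channel gene, was at 192, 229, 197 and 157 CPM in Control and 246, 195, 196 and 210 CPM in KO. Kcnj10, which encodes the potassium channel Kir4.1, was at 228, 227, 234 and 207 CPM in Control and 250, 218, 237 and 226 CPM in KO. Atp1b2, a sodium pump beta subunit gene, was at 429, 406, 409 and 406 CPM in Control and 423, 395, 404 and 384 CPM in KO. The groups overlapped for each, and Aqp4 was highest in KO 1 and lowest in Control 4. Slc4a4, a sodium bicarbonate cotransporter gene, was at 333, 370, 350 and 349 CPM in Control and 409, 325, 364 and 320 CPM in KO. Mlc1, which encodes an endfoot membrane protein, was at 86.3, 71.6, 81.5 and 82.5 CPM in Control and 82.9, 85.6, 82.7 and 81.4 CPM in KO. The log2 fold changes of these 5 genes ran from -0.04 (Atp1b2) to 0.13 (Aqp4), and 4 of the 5 were positive.

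The metabolic genes were likewise spread over both groups. Aldh1l1, a folate enzyme gene used as a pan-astrocyte marker, was at 28.1, 21.8, 25.8 and 30.4 CPM in Control and 24.8, 25.4, 26.6 and 30.1 CPM in KO. Aldoc, a glycolytic aldolase gene, was at 359, 272, 310 and 344 CPM in Control and 287, 366, 333 and 359 CPM in KO. Acsl3, a fatty acyl-CoA synthetase gene, was at 285, 286, 303 and 312 CPM in Control and 348, 272, 287 and 271 CPM in KO. Control 2 was the lowest library for both Aldh1l1 and Aldoc, and KO 1 the highest for Acsl3. Their log2 fold changes were 0.01, 0.07 and -0.01.

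Genes for receptors, matrix, calcium binding and transcription completed the identity list. Sox9, a transcription factor gene of the astrocyte lineage, was at 12.7, 15.2, 14.7 and 12.6 CPM in Control and 12.7, 16.2, 14.8 and 17.0 CPM in KO. It had the largest positive log2 fold change of the identity genes, 0.14 ± 0.11 (SE; 95% interval -0.11 to 0.38), with overlapping groups. Fgfr3, a fibroblast growth factor receptor gene, was at 85.9, 66.2, 64.4 and 70.8 CPM in Control and 57.7, 68.6, 77.3 and 85.9 CPM in KO. Its log2 fold change was 0.005 ± 0.12 (SE; 95% interval -0.25 to 0.26; edgeR unadjusted p = 0.966, adjusted p = 0.9999). The ranges of Fgfr3 overlapped widely, and its exons share 998 bases with G630022F23Rik on the opposite strand, whose reads cannot be told apart without a stated strand setting. Ntsr2, a neurotensin receptor gene, was at 68.8, 57.8, 60.2 and 64.9 CPM in Control and 63.7, 58.8, 59.6 and 57.9 CPM in KO. Gpc5, a glypican gene, was at 33.3, 36.6, 35.95 and 36.2 CPM in Control and 37.0, 37.1, 33.4 and 35.2 CPM in KO. S100b, a calcium-binding protein gene, was at 58.5, 60.2, 67.7 and 69.3 CPM in Control and 65.6, 67.1, 61.4 and 68.6 CPM in KO. The ranges of the groups overlapped for all 3.

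Over the whole identity list, 13 of 18 log2 fold changes were positive, beside 51.5% of all 14788 tested genes. The count of positive identity genes was 9 without Control 1 and 14 with upper quartile scaling, the ends of its range over the alternatives. No identity gene was called, beside 0.0135% of all tested genes (2 genes, adjusted p under 0.05), and 0 had an unadjusted p under 0.05, beside 2.81% of all tested genes (edgeR). None had groups that did not overlap, beside 0.933% of tested genes with KO higher and 0.811% with KO lower. The lowest bound of any identity interval was a ratio of 0.70 (Gjb6) and the highest 1.30 (Sox9). The 3 genes whose intervals reached outside 0.8 to 1.25 were Aqp4, Gjb6 and Sox9.

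**Figure D2:**
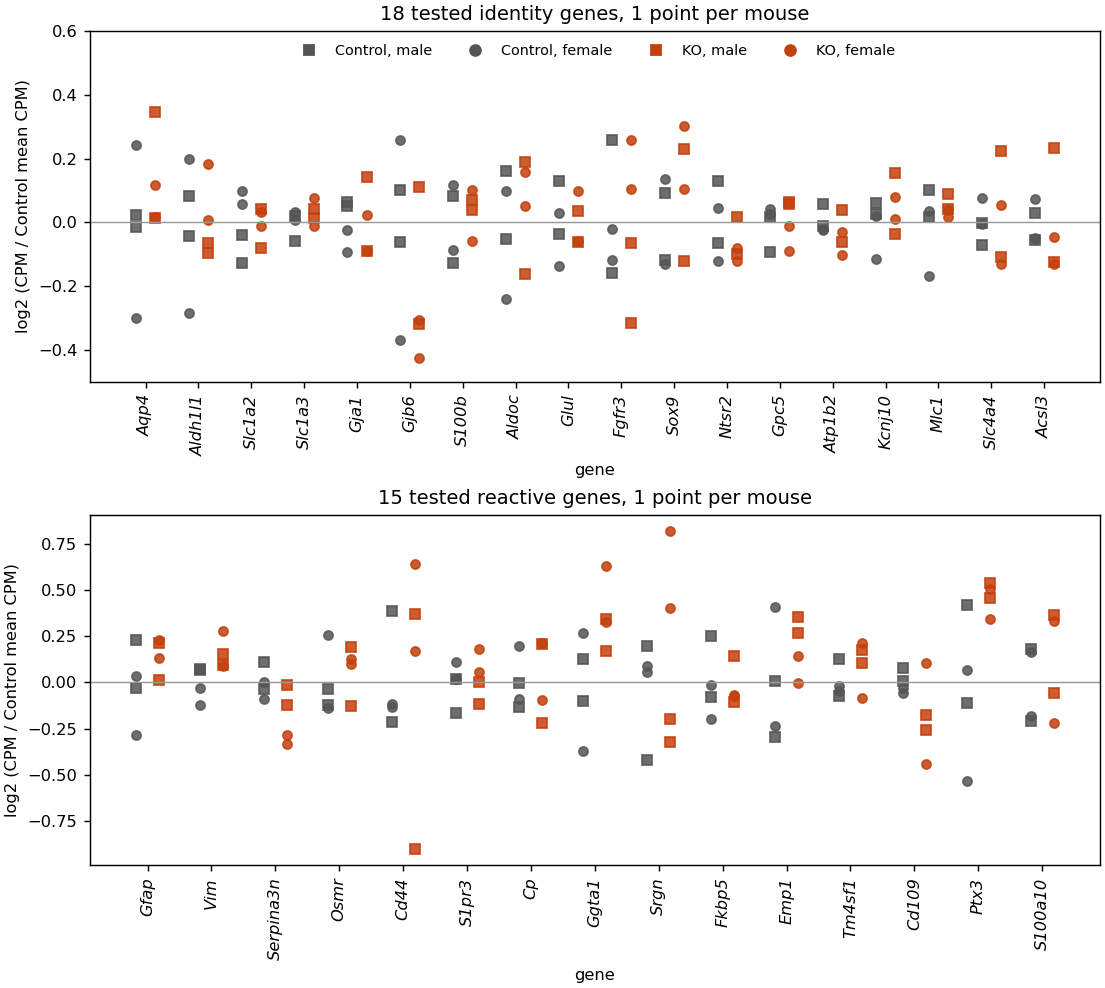
Level of each of the 33 tested members in each mouse, as log2 of the ratio to the gene's mean Control CPM (squares, males; circles, females; grey, Control; orange, KO), with a wider vertical scale in the reactive panel. Slc1a3 is among the tightest identity genes and Gjb6 the loosest, Cd44 scatters most among the reactive genes, and every KO point of Vim lies above every Control point.

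Among the reactive genes, those of the panel raised by most injuries come first. On GRCm38, Gfap lies at chr11:102887336-102900912 (minus strand), Vim at chr2:13573927-13582826 (plus strand) and Serpina3n at chr12:104406729-104414329 (plus strand). Gfap, which encodes the astrocyte intermediate filament protein, was at 272, 237, 227 and 190 CPM in Control 1 to 4 and 234, 268, 254 and 271 CPM in KO 1 to 4. The highest library was Control 1, so the groups overlapped, and the log2 fold change of 0.15 ± 0.09 (SE; 95% interval -0.05 to 0.35) did not pass (edgeR quasi-likelihood test, adjusted p = 0.9999). Vim, which encodes vimentin, was at 21.02, 19.6, 20.997 and 18.4 CPM in Control and 21.4, 22.3, 21.3 and 24.3 CPM in KO. Every KO library was above every Control library, by a narrow margin between 21.02 and 21.3 CPM. Vim had a log2 fold change of 0.16 ± 0.08 (SE; 95% interval -0.02 to 0.34; edgeR unadjusted p = 0.0748, adjusted p = 0.9999). It was the only tested member with non-overlapping groups, 1 of 33, beside the 0.933% of tested genes with KO higher given above.

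Serpina3n, which encodes a secreted serine protease inhibitor and rises in reactive astrocytes, went the other way. It was at 58.2, 50.8, 52.8 and 54.1 CPM in Control and 53.4, 49.6, 42.9 and 44.3 CPM in KO. The KO females KO 3 and KO 4 were the lowest of the 8 mice, while the KO males lay within or just under the Control range. Its log2 fold change was -0.19 ± 0.07 (SE; 95% interval -0.33 to -0.04; edgeR unadjusted p = 0.0165, adjusted p = 0.9999). It was the only member with an unadjusted p under 0.05 in the main fit, 1 of 33, beside 2.81% of all tested genes. That p rose above 0.05 without Control 4 or without KO 3, with log2 fold changes of -0.15 and -0.16. Other members were under 0.05 in some alternatives. Ggta1 was so with limma voom and with no sex covariate, and Vim, Ggta1, Gfap and Gjb6 were without KO 1 (edgeR).

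The other tested genes of this panel were lower. Cp, which encodes ceruloplasmin, was at 18.04, 18.6, 19.7 and 22.6 CPM in Control and 22.8, 17.0, 18.5 and 22.9 CPM in KO. Osmr, a receptor gene for oncostatin M, was at 8.88, 8.77, 9.43 and 11.5 CPM in Control and 11.02, 8.84, 10.4 and 10.5 CPM in KO. S1pr3, a sphingosine-1-phosphate receptor gene, was at 5.68, 6.07, 5.01 and 5.70 CPM in Control and 5.18, 5.63, 6.36 and 5.83 CPM in KO. In each of them the KO values lay on both sides of the Control median. Cd44, which encodes a hyaluronan receptor, was at 1.56, 1.10, 1.03 and 1.09 CPM in Control and 1.55, 0.642, 1.35 and 1.87 CPM in KO. It was the most variable member, with a within-group SD of 0.46 on the log2 scale, larger than that of 95.2% of tested genes. Its KO libraries included both the lowest and the highest of all 8.

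Lcn2, Timp1 and Steap4 fell under the count filter of the main test. Lcn2, which encodes lipocalin 2 and is among the most inducible genes of reactive astrocytes, had 5, 0, 4 and 2 counts in Control and 3, 2, 9 and 0 counts in KO. Timp1, which encodes an inhibitor of matrix metalloproteinases, had 7, 12, 1 and 3 counts in Control and 3, 7, 12 and 9 counts in KO. Steap4, a metalloreductase gene, had 1, 6, 3 and 4 counts in Control and 3, 3, 4 and 4 counts in KO. A count of 0 allows up to 3 counts, which is 0.166 CPM in Control 2 and 0.170 CPM in KO 4, and this limit covers counting error only. Without the filter all 18 reactive genes were tested, 14 had a positive log2 fold change and 0 were called (edgeR).

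Of the A1 panel members, Ggta1, which encodes a galactosyltransferase, was at 3.20, 2.26, 2.73 and 3.52 CPM in Control and 3.29, 3.71, 3.67 and 4.53 CPM in KO. Of the KO libraries 3 were above all Control libraries, and KO 1 lay inside the Control range. The log2 fold change was 0.38 ± 0.18 (SE; 95% interval -0.01 to 0.78; edgeR unadjusted p = 0.0562, adjusted p = 0.9999). Srgn, which encodes the proteoglycan serglycin of many blood-derived cells, was at 3.27, 3.04, 2.14 and 2.97 CPM in Control and 2.49, 2.28, 3.78 and 5.04 CPM in KO. Both KO females were above the Control range and both KO males within it. The log2 fold change of Srgn was 0.23 ± 0.21 (SE; 95% interval -0.22 to 0.69; edgeR unadjusted p = 0.281, adjusted p = 0.9999). Fkbp5, a chaperone gene that glucocorticoids induce strongly, was at 92.9, 68.3, 74.0 and 77.4 CPM in Control and 86.4, 72.7, 74.4 and 74.3 CPM in KO. Its log2 fold change was -0.02 ± 0.08 (SE; 95% interval -0.20 to 0.16).

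The A2 panel members were Ptx3, Emp1, S100a10, Tm4sf1 and Cd109. Ptx3, which encodes the acute-phase protein pentraxin 3, was at 0.852, 0.441, 0.589 and 0.667 CPM in Control and 0.874, 0.927, 0.809 and 0.906 CPM in KO. Of the KO libraries 3 were above all Control libraries, and Control 1 lay within the KO range. The log2 fold change of Ptx3, 0.48 ± 0.28 (SE; 95% interval -0.12 to 1.08), was the largest of the reactive genes and had the widest upper bound, a ratio of 2.11 (edgeR unadjusted p = 0.110, adjusted p = 0.9999). Cd109, which encodes a membrane protein of the alpha-2-macroglobulin family, was at 24.8, 24.1, 26.0 and 23.6 CPM in Control and 21.8, 20.6, 26.5 and 18.2 CPM in KO. Of the KO libraries 3 were below all Control libraries, while KO 3 was the highest of the 8, and the log2 fold change was -0.18 ± 0.11 (SE).

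Emp1, an epithelial membrane protein gene, was at 2.27, 3.70, 2.80 and 2.36 CPM in Control and 3.56, 3.35, 3.07 and 2.77 CPM in KO. Tm4sf1, a tetraspanin-like gene also known from endothelium, was at 3.91, 3.97, 4.49 and 4.06 CPM in Control and 4.64, 4.42, 3.88 and 4.76 CPM in KO. S100a10, which encodes the annexin A2 partner p11, was at 2.70, 2.097, 2.06 and 2.67 CPM in Control and 2.29, 3.07, 2.05 and 3.0004 CPM in KO. The groups overlapped for the 3 genes, and their log2 fold changes were 0.18, 0.11 and 0.12.

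Over the reactive list, 12 of 15 log2 fold changes were positive, beside 51.5% of all tested genes, and the count ranged from 9 to 13 over the alternatives that tested the same 15 genes. By panel, 6 of 7 tested genes were positive for the panel raised by most injuries, 2 of 3 for A1 and 4 of 5 for A2. None was called, by edgeR, by DESeq2 or by limma voom, beside 0.0135% of all tested genes with edgeR. The intervals of 3 of the 15 lay inside 0.8 to 1.25 (S1pr3, Cp and Fkbp5), and those of 14 lay inside a 2-fold change in either direction. The reactive median exceeded the identity median by 0.11 on the log2 scale. This difference was 0.043 without KO 4, 0.14 without KO 3 and 0.052 without a chosen set of members shared with other cell types. That set was Glul, S100b, Acsl3, Aldoc, Slc4a4, Vim, Cd44, Timp1, Srgn, Tm4sf1, Emp1, S100a10, Cp and Lcn2. All tested reactive genes in it had a positive log2 fold change, and the negative ones, Serpina3n, Fkbp5 and Cd109, were kept. A smaller difference without the set therefore says nothing about sharing with other cell types. The size of the difference thus changed with the library and with the genes left out, and its source was not tested.

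**Figure D3:**
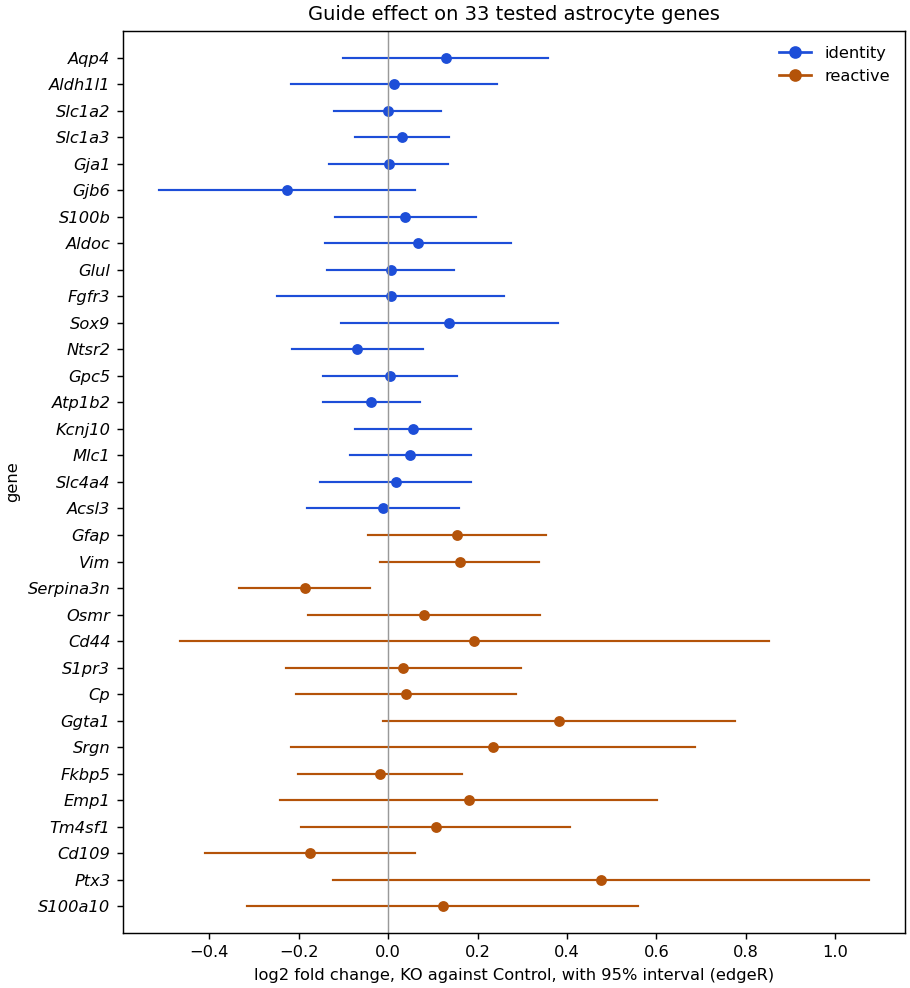
Log2 fold change of KO against Control for the 33 tested members, with 95% intervals from the edgeR fit. All identity intervals include 0, most are short, and of the 15 reactive intervals only that of Serpina3n lies wholly on one side of 0.

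The precision behind these values differed between the lists. The identity genes had 179 to 102906 counts per library and a median within-group SD of 0.098 on the log2 CPM scale. The tested reactive genes had 8 to 4783 counts and a median SD of 0.166. The median SD over all tested genes was 0.147. Each gene's SD was also divided by the SD that counting alone gives. The median of these ratios was 3.56 for the identity genes and 1.39 for the tested reactive genes.

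The per-library scores were compared next. The score of a list is the mean log2 CPM of its tested members, with the Control mean set to 0. The identity score was 0.03, -0.05, 0.00 and 0.02 in Control 1 to 4 and 0.05, -0.01, -0.02 and 0.03 in KO 1 to 4. The reactive score was 0.10, -0.06, -0.06 and 0.02 in Control and 0.11, 0.01, 0.09 and 0.21 in KO. KO 4 was the highest library for the reactive score and Control 1 lay within the KO range. The reactive score minus the identity score was 0.07, -0.01, -0.06 and 0.00 in Control and 0.07, 0.02, 0.10 and 0.18 in KO. The 2 KO females had the highest differences of the 8 mice, and KO 1 lay beside Control 1. In summed CPM, which Gfap dominates, the reactive genes ran from 421 to 520 in Control and from 474 to 495 in KO.

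**Figure D4:**
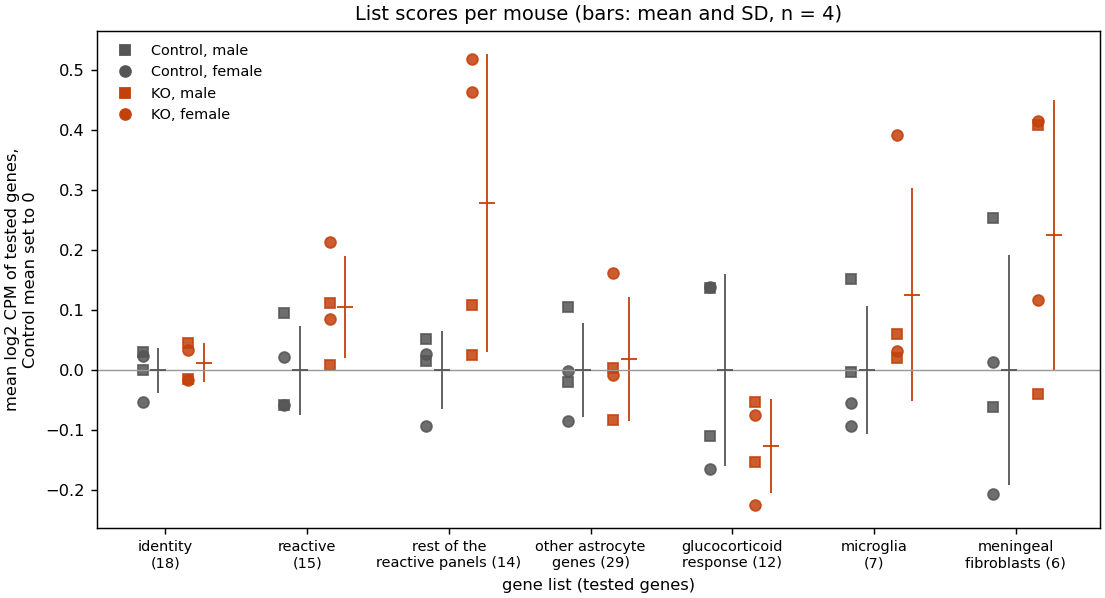
Score of 7 gene lists in each mouse, as the mean log2 CPM of the tested genes with the Control mean at 0 (squares, males; circles, females; grey, Control; orange, KO; bars, mean and SD of 4 mice). The identity score stays between -0.05 and 0.05 in all 8 libraries, the reactive score reaches 0.21 in KO 4, and the KO females stand highest for the rest of the reactive panels.

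KO 4 was the highest of the 8 libraries for 6 of the 15 tested reactive genes, Vim, Cd44, Cp, Ggta1, Srgn and Tm4sf1. The same library had the highest microglia score, 0.39 against -0.09 to 0.15 in the other 7, over the 7 tested markers of that list. None of these markers was at 0, and they summed to 235 to 259 CPM in Control and 247 to 299 CPM in KO. The 6 T cell and monocyte markers had 31 counts in KO 4, 4 to 13 in Control and 11 to 16 in the other KO libraries. Most of these counts were of Cd4 (41 over all 8 libraries) and Ccr2 (35). Cd4 had counts in every Control library and Ccr2 in all but Control 1. Cd3e, Cd8a, Ly6c2 and S100a8 had only 5, 5, 12 and 2 counts over all 8 libraries. They were at 0 in all Control libraries, where a count of 0 allows up to 3 counts, and Ly6c2 had counts in KO 3 and KO 4 only. The 6 meningeal fibroblast markers had scores of 0.41 in KO 1, 0.41 in KO 4 and -0.21 to 0.25 in the other 6, with summed levels of 32.1 to 38.6 CPM in Control and 35.2 to 47.6 CPM in KO. The log2 fold changes of the 5 pericyte and smooth muscle markers were all positive (median 0.23), at summed levels of 204 to 219 CPM in Control and 209 to 259 CPM in KO. Adding the fibroblast score as a covariate left 9 of 15 reactive genes positive, with a median log2 fold change of 0.07, and took Cd44 to -0.34. The same covariate left 9 of 18 identity genes positive, against 13 in the main fit. KO 4 was also highest for the other astrocyte genes (0.16) and the upstream signals of reactivity (0.22) described below. The same held for the interneuron (0.15) and oligodendrocyte precursor (0.15) markers. It was not highest for the pyramidal and dentate, oligodendrocyte, endothelial, pericyte or ependymal markers. The part of any of these cells in the reactive values was not tested. The fibroblast score itself averaged 0.22 in KO (SD 0.23, n = 4), with the Control mean at 0 (SD 0.19, n = 4). A fit with that covariate therefore cannot separate the score from the guide.

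Single markers of other cells were also set beside the members, and none was called (edgeR). Of 52 tested markers 5 had an unadjusted p under 0.05, beside 2.81% of all tested genes, of which 264 were higher and 152 lower in KO. These 5 were all positive: Cx3cr1 of microglia (0.19 ± 0.08, log2 fold change and SE), Vtn of pericytes (0.34 ± 0.09), Col1a2 of fibroblasts (0.43 ± 0.19), and Kdr (0.21 ± 0.09) and Cdh5 (0.28 ± 0.10) of endothelium. The median log2 fold change was 0.04 for the 7 endothelial markers, 0.02 for the 7 pyramidal and dentate markers, -0.03 for the 6 interneuron markers and -0.07 for the 4 oligodendrocyte precursor markers. All 6 oligodendrocyte markers were negative, with a median of -0.14, and Mobp, a myelin gene, had the smallest p of them (-0.20 ± 0.13). Their summed level ran from 2845 to 4766 CPM in Control and from 2619 to 4154 CPM in KO, so the groups overlapped. Of the 7 ependymal and choroid plexus markers 4 were tested, with a median of 0.08. The smallest p in the remaining lists belonged to Slc17a7 (0.07 ± 0.08), Vip (-0.24 ± 0.13), Vcan (-0.15 ± 0.09) and Kl (0.08 ± 0.10).

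The sexes were then examined separately, with 2 KO and 2 Control mice in each and a spread estimated from all 8 libraries. Within females 4 members had an unadjusted p under 0.05, beside 7.11% of all tested genes. Gfap had a log2 fold change of 0.30 (edgeR unadjusted p = 0.0277), Vim 0.26 (0.0399), Srgn 0.55 (0.0474) and Serpina3n -0.27 (0.0144). In Gfap the females were at 237 and 190 CPM with the control guide and 254 and 271 CPM with the SIK3 guide. None of the members was called within females, beside 0.0406% of all tested genes, and the smallest adjusted p of a member was 0.661 (edgeR). Within males 0 members had an unadjusted p under 0.05, beside 1.83% of all tested genes, and 0 were called, beside 0% of all tested genes (edgeR). There the log2 fold change was 0.01 for Gfap, 0.06 for Vim, -0.18 for Srgn and -0.11 for Serpina3n. DESeq2 also called 0 members in either sex.

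The difference between the sexes was tested as an interaction, since a value past a threshold in one sex alone does not show one. No member was called, beside 0% of all tested genes, and the smallest adjusted p was 0.765 (edgeR). A single member had an unadjusted p under 0.05, beside 5.42% of all tested genes: Fgfr3, with a log2 fold change of -0.25 in males and 0.25 in females (edgeR unadjusted p = 0.0195). In males Fgfr3 was at 85.9 and 64.4 CPM with the control guide and 57.7 and 68.6 CPM with the SIK3 guide. In females it was at 66.2 and 70.8 CPM and at 77.3 and 85.9 CPM. For Gfap, Vim, Serpina3n and Srgn the unadjusted interaction p was 0.114, 0.231, 0.248 and 0.0777 (edgeR). Of the sets, 9 of the 18 identity genes and 4 of the 15 reactive genes had opposite signs in the 2 sexes. For males and females in turn, the reactive median was 0.06 and 0.08 and the identity median 0.01 and 0.02.

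Females against males, with the guide as covariate, gave 0 called members, beside 0.0609% of all tested genes, and a smallest adjusted p of 0.764 (edgeR). Here 2 members had an unadjusted p under 0.05, beside 6.05% of all tested genes. Srgn was higher in females by 0.53 (edgeR unadjusted p = 0.0264), and Serpina3n lower, with a log2 difference of -0.16 (edgeR unadjusted p = 0.0340). DESeq2 called 0 members in this comparison and in the interaction.

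The base composition of transcripts moved with the identity genes in some libraries and not in others. The slope of log2 CPM against transcript GC content, fitted over all tested genes, per 10 percentage points, was 0.15, -0.05, -0.10 and -0.12 in Control 1 to 4 and -0.17, 0.10, 0.03 and 0.17 in KO 1 to 4. The 6 identity genes of lowest GC content (43.4% to 47.6%), Acsl3, Gja1, Slc1a3, Slc4a4, Aqp4 and Slc1a2, were all above their own mean in KO 1, by 0.16 log2 units on average. That library had the most negative slope and was the highest of the 8 for Aqp4, Gja1, Kcnj10, Slc4a4 and Acsl3. The 6 of highest GC content (51.7% to 58.1%), Ntsr2, Fgfr3, Aldh1l1, Aldoc, Mlc1 and Atp1b2, were all above their own mean in Control 1, by 0.13, and all below it in Control 2, by 0.16 (a mean deviation of -0.16). Across the 18 identity genes of a library, the correlation of GC content with the deviation from the gene's mean ran from -0.66 in Control 3 to 0.62 in Control 1. In Control 4 the slope was negative and this correlation was 0.16. In KO 4, which had the steepest positive slope, the correlation was 0.38, and 3 of the 6 genes of highest GC content were above their own mean. These points share 1 library and its depth, and the value is a description. With the GC slope as a covariate 0 members were called and the identity median was 0.02.

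**Figure D5:**
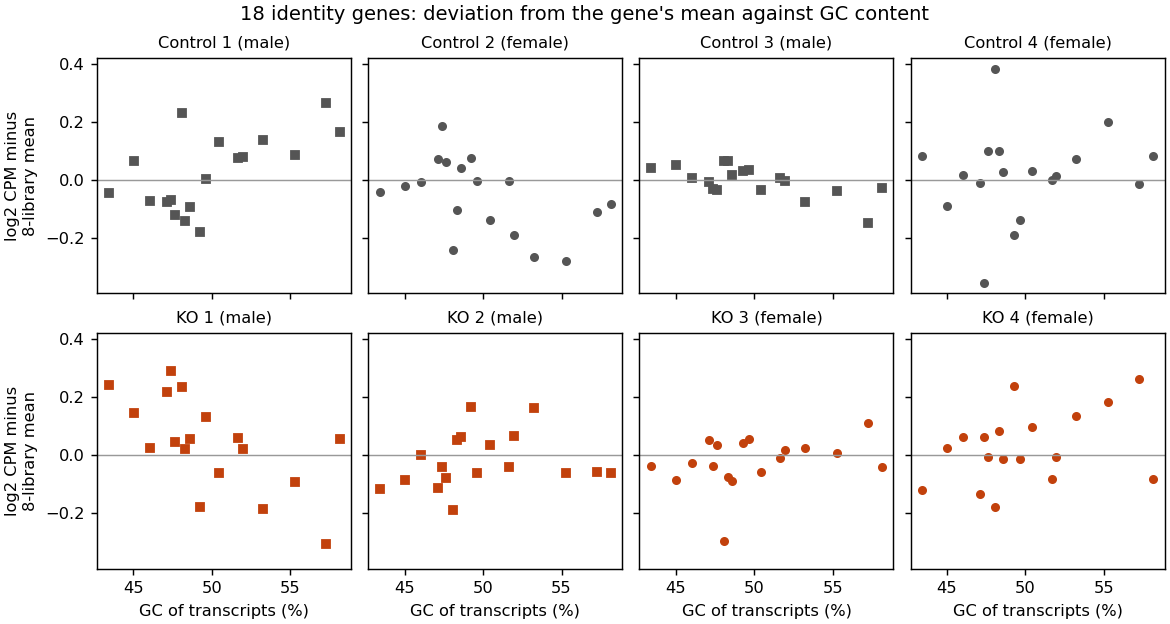
Deviation of each of the 18 identity genes from its own mean over the 8 libraries, in log2 CPM, against the GC content of its transcripts in percent, with 1 panel per library. The points slope upward in Control 1 and downward in KO 1 and Control 3.

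Other genes of the same biology, not members, were set beside these values. Of 30 other astrocyte genes 29 were tested, and 16 had a positive log2 fold change with a median of 0.00. None had an unadjusted p under 0.05 (edgeR). The smallest p was that of Htra1, a serine protease gene, with a log2 fold change of -0.11 ± 0.07 (SE). Of 18 upstream signals of reactivity 11 were tested, and 8 were positive with a median of 0.08 and 0 with an unadjusted p under 0.05 (edgeR). Stat3, the transcription factor gene that carries cytokine signals to Gfap, was at 48.8, 46.7, 48.0 and 45.0 CPM in Control and 49.8, 48.7, 53.0 and 53.7 CPM in KO. Its log2 fold change was 0.12 ± 0.06 (SE), with the KO females highest.

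Of the 19 remaining genes of the reactive panels 14 were tested, 11 had a positive log2 fold change and the median was 0.30. Their score was -0.09 to 0.05 in Control and 0.11, 0.03, 0.46 and 0.52 in KO 1 to 4, with both KO females highest. Of the 14, 4 had an unadjusted p under 0.05, all higher with the SIK3 guide, beside 2.81% of all tested genes, and none was called over both sexes (edgeR). Gbp2, which encodes an interferon-induced GTPase, was at 2.63, 2.26, 1.62 and 1.46 CPM in Control and 3.50, 2.50, 4.58 and 4.87 CPM in KO. H2-D1, an MHC class I gene, was at 13.1, 12.1, 11.3 and 9.76 CPM in Control and 12.2, 14.2, 30.1 and 35.2 CPM in KO. Both KO females were above all other mice, and the KO males lay within or just above the Control range. H2-D1 was called within females, with a log2 fold change of 1.57 (edgeR quasi-likelihood test, adjusted p = 0.00303), and its interaction did not pass (edgeR adjusted p = 0.167). Reads of MHC class I genes may be shared with near-identical copies. Psmb8, an immunoproteasome gene, had a log2 fold change of 1.14 ± 0.40 (SE). C3, the complement gene used to mark A1 astrocytes, was below the filter, at 0.497, 0.331, 0.295 and 0.424 CPM in Control and 1.01, 0.356, 0.647 and 2.89 CPM in KO. These panel genes are also expressed by microglia, blood-derived and vascular cells, whose markers were given above, and their part was not tested.

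Because Fkbp5 and Serpina3n respond to glucocorticoids, 12 other genes listed for the glucocorticoid response were examined, among them the receptor gene Nr3c1. All 12 were tested, and the median log2 fold change was -0.15. The 4 positive ones were Per1, Zbtb16, Nr3c1 and Fkbp4, so the receptor gene itself counts among them. Sgk1, a kinase gene induced by corticosteroids, was at 90.8, 54.6, 61.4 and 80.3 CPM in Control and 63.9, 48.6, 50.003 and 51.5 CPM in KO. Control 1 and Control 4 were high, and the other Control libraries were within the KO range. The log2 fold change was -0.42 ± 0.14 for Sgk1, -0.30 ± 0.11 for Ddit4 and -0.28 ± 0.11 for Tsc22d3 (SE), each with an unadjusted p under 0.05 and an adjusted p of 0.9999 (edgeR). Zbtb16 had an unadjusted p under 0.05 in the other direction, with 0.15 ± 0.06 (SE). Of the 12, 3 were lower and 1 higher at that threshold, beside 2.81% of all tested genes. Fkbp5 itself was highest in Control 1, at 92.9 CPM, as Sgk1 was. The next highest library was KO 1 for Fkbp5 (86.4 CPM) and Control 4 for Sgk1 (80.3 CPM).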

How the data were processed

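Poly(A) RNA of CA1 from 8 mice was sequenced with a stranded mRNA kit, per the labels' protocols. The authors deposited raw counts per Ensembl gene, 1 file per mouse. The tools named in the submitters' processing notes were Trimmomatic (version 0.33), TopHat2 (2.1.1) and HTSeq (2.0.1), on mm10; their settings were not recorded there. Neither the strand setting of the counting nor the annotation release was stated in the sources used here, so counts of members that share exons with another gene are less certain (Aldh1l1, Slc1a2, Glul, Fgfr3, Gpc5, Acsl3, S1pr3 and Cp in GENCODE M21). Symbols were found for 35449 of 37315 identifiers, and 0 entries named no gene. A whole-series table with 8 columns was not used. The 28 pairs of libraries differed by 3.31 to 15.5 times the counting variance, so the check for 1 library under 2 names found none.

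The main test was the quasi-likelihood F test of edgeR (4.0.16, R 4.3.3) on TMM-scaled counts, with sex as covariate. After filterByExpr (count minimum 10, total minimum 15, per group) 14788 genes entered, and the fit had 5 residual degrees of freedom. A call is a Benjamini-Hochberg adjusted p under 0.05 over these genes. Intervals are 95% from that fit. CPM used TMM library sizes, log2 CPM a prior count of 2, and FPKM the merged exon length of GENCODE M21. A model with 4 means, 1 per sex and guide, gave the within-sex contrasts and their difference. The procedure was tested on simulated data with the same dispersion for all genes and changes only in well-counted genes. It therefore does not show what the test can detect in the low reactive genes.

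All 36 members are named, with full statistics for those with an unadjusted p under 0.05, non-overlapping groups or the largest fold change of a list. From each further list up to 3 genes by smallest p are named. C3 and the 4 positive glucocorticoid genes, Zbtb16 among them, were named after their values were seen. The members and lists were chosen with earlier results of these data known. Alternatives were RLE and upper quartile scaling, other filters, DESeq2 1.42.0, limma 3.58.1 voom, no covariate, a fibroblast or GC covariate, and leaving out each library. Leaving out libraries and DESeq2 for the sex comparison, and leaving out libraries for the within-sex fits, were added after seeing the data.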

Additional observations from a re-analysis of the deposited data

Results flagged for a closer look

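In each group of 4 mice the library farthest from the others was examined for the 36 members and the 3 list scores. Of 78 such groups 3 had a library whose gap to its nearest neighbour passed Dixon's 95% critical value, and chance alone gives about 1 in 20. Atp1b2 was at 428.8 CPM in Control 1 and at 405.8 to 408.8 CPM in the other Control mice. Cd44 was at 1.56 CPM in Control 1 and at 1.03 to 1.10 CPM in the other Control mice. Fkbp5 was at 86.4 CPM in KO 1 and at 72.7 to 74.4 CPM in the other KO mice.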

How the results depend on the processing

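In all 17 alternatives for the comparison of guides 0 members were called, and DESeq2 and leaving out each library gave 0 for the sex, interaction and within-sex comparisons too. The smallest adjusted p of a member ranged from 0.395 (without KO 1) to 1. Members with an unadjusted p under 0.05 numbered 1 in the main fit and 1 to 5 in the alternatives, the most without KO 1. The number of genes called among all tested was 2, and it was 84 with no filter on low counts, 4 with the fibroblast score as a covariate, and 0 to 2 when 1 library was left out. Sik3 kept a negative log2 fold change of -0.85 to -0.70 when 1 library was left out. The reactive minus identity difference of 0.11 ranged from 0.043 to 0.14 when 1 library was left out. It was 0.052 without the set of members named above as shared with other cell types, whose tested reactive genes were all positive. Signs of single members changed for 0 to 9 of 33 genes, most with the fibroblast covariate, where Cd44 was at -0.34. Serpina3n kept a negative sign in all of them. No paired analysis was possible because the labels give the mice no shared replicate numbers. Lcn2, Timp1 and Steap4 were under the main filter and were tested only with no filter, where they were not called. Depth limits the low reactive genes: an interval as wide as that of Ptx3 (a ratio of 0.918 to 2.11) leaves a doubling within it.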
